A study of Mus musculus with 12 samples.

Results

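Genes that move cholesterol out of and into the absorptive cells of the gut, together with the liver X receptors (LXRs) and the genes these receptors switch on, were followed through 12 arrays of mouse small intestine. The members were 10 named genes: the receptors Nr1h3 (LXR alpha) and Nr1h2 (LXR beta), the efflux transporters Abca1, Abcg1, Abcg5 and Abcg8, the cholesterol importer Npc1l1, the cholesterol esterifying enzyme Soat2, and the LXR targets Mylip and Lpcat3. They were chosen by name, with earlier results of these data known. Each stood for 1 probe set that lists exactly 1 gene symbol. Of the 10, 8 had such a probe set, against 19938 genes in the whole table, and all 8 were among the 11924 genes tested. Nr1h2 and Soat2 were not analysed here.

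Cholesterol enters the enterocyte through Npc1l1 in the brush border membrane, and what the cell does not keep is returned to the lumen by the paired transporters Abcg5 and Abcg8 or handed to HDL particles on the blood side by Abca1. LXRs are nuclear receptors that bind oxidised cholesterol (oxysterols) and, paired with a retinoid X receptor, raise transcription of these efflux transporters, of Mylip, whose protein marks the LDL receptor for degradation, and of Lpcat3, which places polyunsaturated fatty acids in membrane phospholipids. SREBP2 works on the opposite side, since it switches on cholesterol synthesis and uptake when the cell's own cholesterol is low.

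All animals were male C57BL/6J mice, housed 1 to a cage and killed in the fed state, 4 (young) or 21 (old) months old. After chow and a low-fat run-in (2 weeks in the array labels, longer in the study's methods) they ate a low-fat diet (10% of energy as fat) or a high-fat diet (45% of energy as fat) for 2 weeks, both with palm oil as the fat. Each array carried pooled RNA of mucosal scrapings of 1 segment of the small intestine (proximal, middle or distal), from 6 young or 8 old mice, so the 12 groups of segment, age and diet held 1 array each and came from 4 pools of mice. The values are log2 intensities after RMA (Robust Multi-array Average) normalization by the authors, on which a difference of 1 is 2-fold, and the array medians lay between 5.57 and 5.7. A scraping holds several cell types, and a lower share of a cell type cannot be told from less RNA per cell. Of 10 enterocyte markers, 10 were above the intensity limit of 50 used here, as were 17 of 18 macrophage markers and 10 of 10 smooth muscle markers. Of 5 measured hepatocyte markers, Ttr was above it on every array and the other 4, Alb among them, on none.

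The sequences beside 3 of the transporters are given first, because Abca1 fell most on the high-fat diet and because Abcg5 and Abcg8 share 1 stretch of DNA. RefSeq (GRCm38.p6) windows from 250 bases before to 50 bases after a transcript start were found for 8 of the 10 members, all but Abcg1 and Soat2. Abca1 lies at chr4:53030789-53159988 on the minus strand, and its window is counted from a transcript start inside that span. The first line gives the part of the window upstream of the span, bases -250 to -94 (chr4:53159989-53160145), with the sequence CACGTG in capitals. The second gives bases -74 to -45 (chr4:53159940-53159969), with the capitals marking the best match to 2 copies of AGGTCA in the same direction 4 bases apart, the arrangement that the LXR and retinoid X receptor pair is known to bind, searched on both strands.
Abca1 upstream: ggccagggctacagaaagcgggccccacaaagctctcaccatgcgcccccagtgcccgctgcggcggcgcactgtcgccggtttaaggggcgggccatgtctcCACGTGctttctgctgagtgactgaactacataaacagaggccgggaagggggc
Abca1 match: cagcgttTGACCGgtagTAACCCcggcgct
Read on the other strand, the match runs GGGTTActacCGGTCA and departs from the 12 specified bases at 3. No other member's window held a match with at most 3 departures. This is a description only: 21.9% of 32851 promoter windows held one with at most 3 departures, 3.02% one with at most 2, and 7.15% held CACGTG.

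Abcg5 (chr17:84658174-84683011, minus strand) and Abcg8 (chr17:84676302-84700333, plus strand) encode the partners of 1 exporter and are transcribed away from each other, with 109 bases between their start sites at 84683011 and 84683121; a second annotated start of Abcg8 lies further upstream, so that the gene spans overlap. The bases between the start sites (chr17:84683012-84683120, plus strand) are shown with AGATAA, which reads TTATCT on this strand, in capitals.
Abcg5 and Abcg8: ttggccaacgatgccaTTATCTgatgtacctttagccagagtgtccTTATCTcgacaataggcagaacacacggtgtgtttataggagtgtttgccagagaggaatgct
AGATAA, searched on both strands, is a sequence that GATA factors are known to bind. It occurred 3 times in the 209 bases that the Abcg5 and Abcg8 windows share. At least 2 occurrences were found in 1.14% of all windows, and at least 3 in 0.107%.

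The levels of all 8 measured genes on every array are plotted next, and the high-fat and low-fat symbols of 1 age stand side by side.

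**Figure D1:**
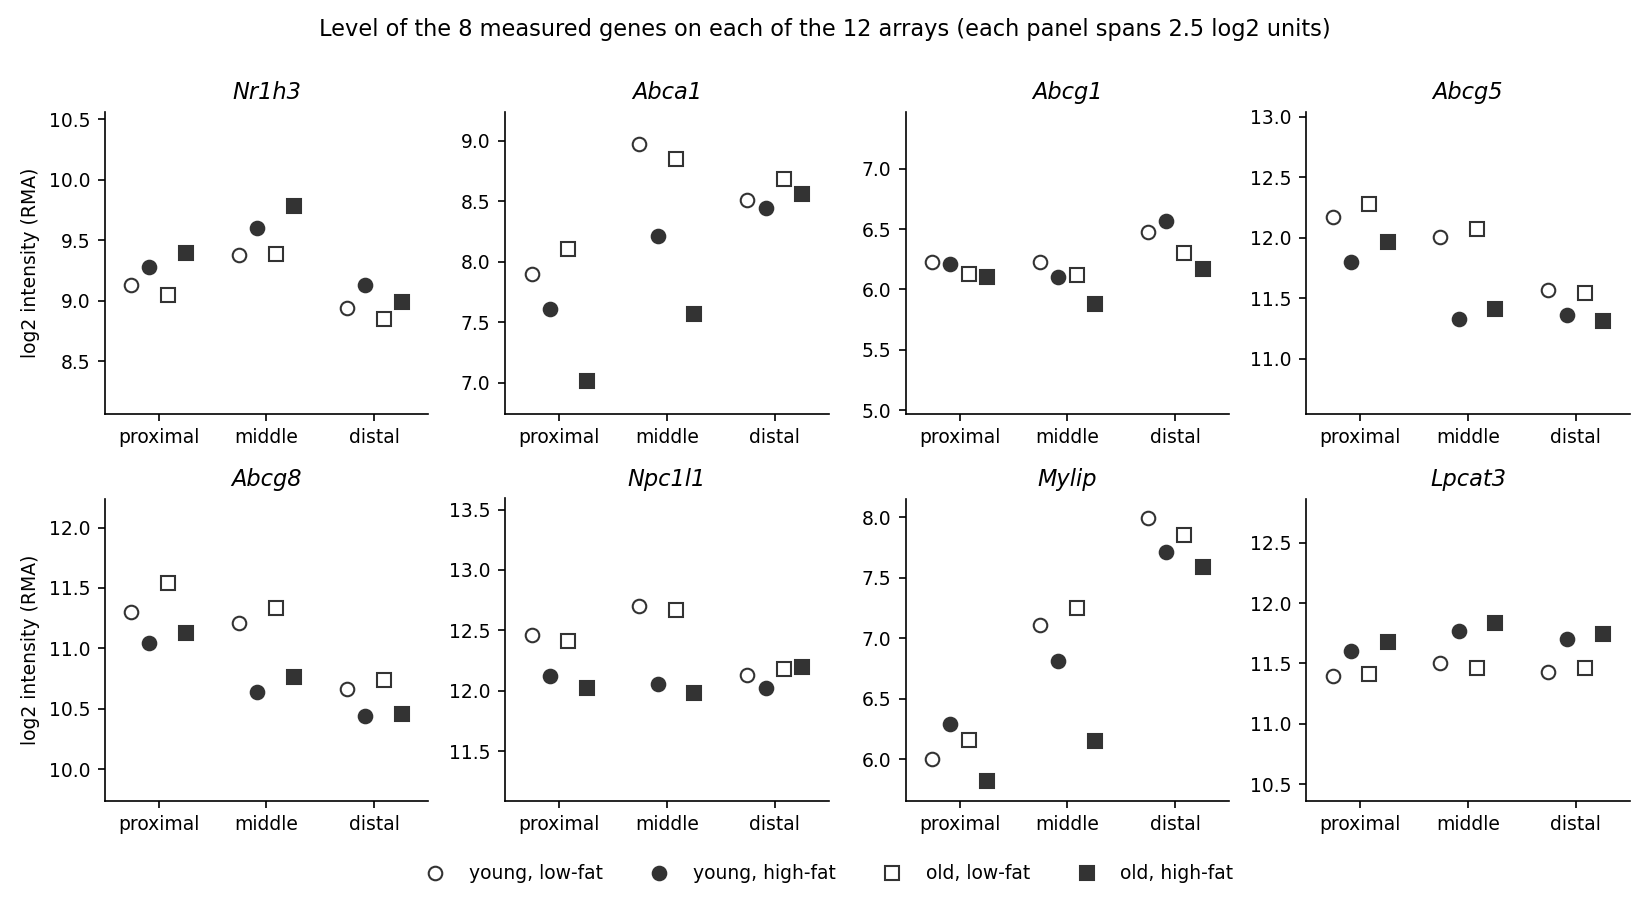
Log2 intensity (vertical axis, RMA) of the 8 measured genes by segment (horizontal axis), 1 symbol for each of the 12 arrays; circles are young and squares old mice, open symbols low-fat and filled symbols high-fat. In the middle segment the filled symbols of Abca1, Abcg5, Abcg8 and Npc1l1 lie below the open ones, those of Nr1h3 and Lpcat3 above them, and Mylip climbs from the proximal to the distal segment.

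The first comparison asked how the high-fat diet changed these genes. Over the means of the 4 pools, the efflux transporters Abca1, Abcg5 and Abcg8 and the importer Npc1l1 fell, and Lpcat3 and Nr1h3 rose. Of the 8 genes, 6 passed an adjusted p of 0.05 (limma, Benjamini-Hochberg over all genes tested), 4 of them lower and 2 higher on the high-fat diet, against 5.69% of all genes. The median difference of the 8 was -0.35 on the log2 scale, and that of all genes -0.01. The error in this fit is the age by diet departure among the 4 pools, moderated over all genes, and whether mice within a pool differed was not measured on these arrays. Below, counts of pairs that go the same way and groups that do not overlap are a description only. The same was not counted over all genes, and the arrays share 4 pools.

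Nr1h3 encodes the LXR of the pair that is more abundant in intestine, liver and macrophages (chr2:91184061-91202829). It stood at 9.13 (low-fat) and 9.28 (high-fat) in the proximal segment of young mice, and at 9.05 and 9.40 in that of old mice. In the middle segment it stood at 9.38 and 9.60 in young and at 9.38 and 9.78 in old mice, and in the distal segment at 8.94 and 9.13 in young and at 8.85 and 8.99 in old mice. The high-fat array was higher in 6 of 6 pairs, by 0.14 to 0.40. The difference of the pool means was 0.24 (SE 0.05, adjusted p = 0.0476). That call sat at the threshold and was lost without the intensity filter (adjusted p = 0.134), after quantile normalization (0.0513) and with the mean of each gene's probe sets (0.0503).

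Abca1, which passes cholesterol to lipid-poor apolipoprotein A-I, had the largest fall among the members. In the proximal segment it stood at 7.90 (low-fat) and 7.61 (high-fat) in young mice, and at 8.10 and 7.01 in old mice. The middle segment gave 8.98 and 8.21 in young and 8.85 and 7.57 in old mice. In the distal segment they were 8.51 and 8.45 in young and 8.69 and 8.56 in old mice, so the diets lay close together there. All 6 pairs were lower on the high-fat diet, by 1.22-fold and 2.13-fold in the proximal, 1.70-fold and 2.43-fold in the middle, and 1.04-fold and 1.09-fold in the distal segment (young and old). The pool means fell by 0.60 (SE 0.10, adjusted p = 0.0238). The call was lost without the intensity filter (adjusted p = 0.0723), after quantile normalization (0.0521) and with an intensity trend in the variance (0.156).

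Abcg5 and Abcg8 fell together. Abcg5 stood at 12.17 and 11.80 (low-fat, high-fat) in the proximal segment of young mice and at 12.28 and 11.97 in old mice. In the middle segment it stood at 12.01 and 11.33 in young and 12.08 and 11.41 in old mice, and in the distal segment at 11.57 and 11.36 in young and 11.54 and 11.31 in old mice. Within each segment both high-fat arrays were below both low-fat arrays, a description of 2 arrays against 2. Abcg8 gave 11.30 and 11.05 in the proximal segment of young mice, and 11.54 and 11.13 in old mice. It gave 11.21 and 10.64 in the middle segment of young mice, 11.33 and 10.76 in old mice, and in the distal segment 10.67 and 10.44 in young and 10.74 and 10.45 in old mice. Here too both high-fat arrays of each segment were below both low-fat arrays. The pool means of Abcg5 fell by 0.41 (SE 0.05, adjusted p = 0.00766) and those of Abcg8 by 0.39 (SE 0.05, adjusted p = 0.0105). Over the 12 arrays the Pearson correlation of Abcg5 with Abcg8 was 0.973, and 0.974 once segment means were removed; the arrays share 4 pools and the same diets.

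Abcg1, which exports cholesterol to mature HDL and is best known from macrophages (chr17:31057694-31117984), lay between 5.88 and 6.57 on the 12 arrays, with the lowest value on the middle array of old mice on the high-fat diet and the highest on the distal array of young mice on the high-fat diet. Its high-fat minus low-fat differences ran from -0.25 to 0.09 over the 6 pairs. The pool means differed by -0.07 (95% interval -0.20 to 0.05, adjusted p = 0.431), which did not pass. The 17 macrophage markers tested averaged between 7.16 and 7.77 on the low-fat arrays and between 6.77 and 7.54 on the high-fat arrays; 1 of them, Ctss, fell over the pool means, and none rose.

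Npc1l1, the target of the drug ezetimibe (chr11:6211011-6230245), was lower on the high-fat diet at both ages in the proximal and middle segments. It stood at 12.46 and 12.12 (low-fat, high-fat) in the proximal segment of young mice and at 12.42 and 12.02 in old mice. The middle segment gave 12.70 and 12.05 in young and 12.66 and 11.98 in old mice. In the distal segment the values were 12.13 and 12.03 in young and 12.18 and 12.20 in old mice, where the diets overlapped. The pool means fell by 0.36 (SE 0.05, adjusted p = 0.0121).

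Mylip (chr13:45389742-45411940) gave 6.00 (low-fat) and 6.29 (high-fat) in the proximal segment of young mice, and 6.16 and 5.82 in old mice. Further down it gave 7.11 and 6.81 in young and 7.25 and 6.15 in old mice in the middle segment, and in the distal segment 7.99 and 7.71 in young and 7.85 and 7.59 in old mice. The high-fat array was lower in 5 of 6 pairs, and the proximal pair of young mice went the other way. The pool means differed by -0.33 (SE 0.10, adjusted p = 0.12), which did not pass.

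Lpcat3 (chr6:124663094-124704716) rose by a like amount in every pair. On the low-fat diet it lay between 11.39 and 11.51 on the 6 arrays, and on the high-fat diet between 11.61 and 11.84. How many of all genes keep the diets apart in this way was not counted. The 6 differences ran from 0.21 to 0.37, with the smallest in the proximal segment of young and the largest in the middle segment of old mice. The pool means rose by 0.28 (SE 0.05, adjusted p = 0.0256). Without the intensity filter the adjusted p was 0.0843.

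**Figure D2:**
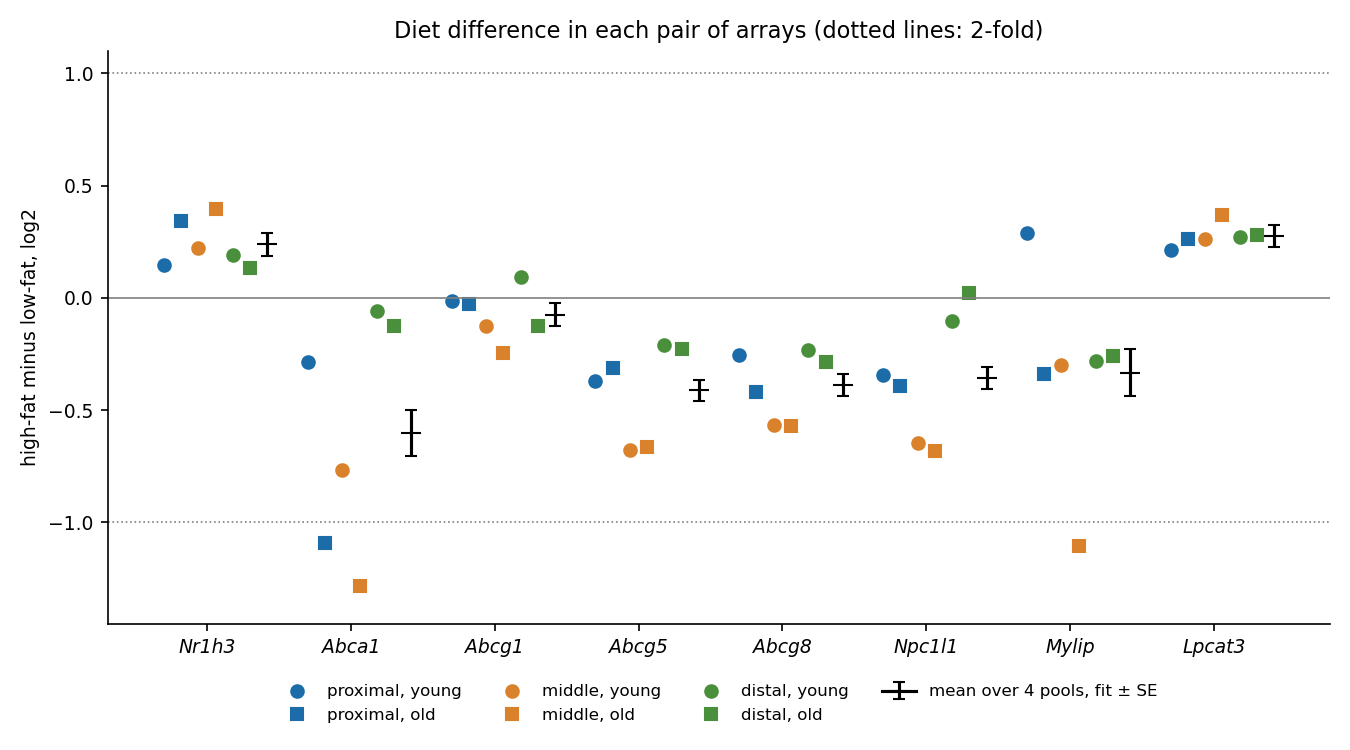
High-fat minus low-fat difference (vertical axis, log2) of each gene in the 6 pairs of arrays, coloured by segment, with circles for young and squares for old mice; the black bars are the difference of the pool means ± SE from limma, and the dotted lines mark 2-fold. Abca1 and Mylip cross the 2-fold line in old mice, Abcg5 and Abcg8 lie below 0 in every pair, and Lpcat3 and Nr1h3 above 0 in every pair.

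By the study's own criterion, a 2-fold difference between 2 arrays, 2 of the 8 genes passed in at least 1 of the 6 diet pairs (Abca1 in the proximal and middle segments of old mice, Mylip in the middle segment of old mice), against 1.48% of all genes. No test goes with a difference of single arrays. In the 6 age pairs none of the 8 passed, against 1.06% of all genes.

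Within segments the calls came from the middle part. There Abca1 fell by 1.02 (SE 0.19, adjusted p = 0.0394), Abcg5 by 0.67 (SE 0.07, adjusted p = 0.00449), Abcg8 by 0.57 (SE 0.07, adjusted p = 0.0119) and Npc1l1 by 0.66 (SE 0.07, adjusted p = 0.00520), which made 4 of 8 genes against 2.55% of all genes. Mylip (-0.70, SE 0.20, adjusted p = 0.128), Lpcat3 (0.32, SE 0.07, adjusted p = 0.0698) and Nr1h3 (0.31, SE 0.08, adjusted p = 0.111) did not pass. With an intensity trend in the variance Lpcat3 (adjusted p = 0.00147) and Nr1h3 (0.0202) passed there too, when 7.2% of all genes did. Each diet there has 2 arrays, and leaving out any 1 of the 4 middle arrays ended all 4 calls. The differences then were -0.77 or -1.28 for Abca1, -0.67 or -0.68 for Abcg5, -0.57 for Abcg8, and -0.64 or -0.68 for Npc1l1. The call of Abca1 alone was also lost without any 1 of the distal arrays (adjusted p = 0.0711), after quantile normalization (0.0504) and with no intensity filter (0.0659).

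In the proximal segment none of the 8 genes passed in limma, against 0.319% of all genes, while 6 had an unadjusted p under 0.05, as had 10.8% of all genes. The proximal differences were -0.69 (SE 0.19) for Abca1, -0.37 (SE 0.07) for Npc1l1, -0.34 (SE 0.07) for both Abcg5 and Abcg8, 0.25 (SE 0.08) for Nr1h3 and 0.24 (SE 0.07) for Lpcat3. In the distal segment none passed either, against 0.528% of all genes, with 3 at an unadjusted p under 0.05 (Abcg5 at -0.22, Abcg8 at -0.26, Lpcat3 at 0.28) and 17.5% of all genes. With an intensity trend in the variance 4 genes passed in the proximal (Abcg5, Abcg8, Npc1l1 and Lpcat3) and 3 in the distal segment (Abcg5, Abcg8 and Lpcat3), but 1.97% and 3.65% of all genes then passed.

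Whether the diet difference itself changed along the gut was tested as a contrast. None of the 8 genes passed for middle minus proximal (0.0252% of all genes did), distal minus middle (0.0755%) or distal minus proximal (0.0503%), with 3, 4 and 1 of the 8 at an unadjusted p under 0.05, where 6.73%, 13.3% and 9.5% of all genes were. The nearest was Npc1l1 in distal minus middle, at 0.62 (95% interval 0.38 to 0.86, unadjusted p = 0.000395 and adjusted p = 0.102 from limma). With the intensity trend Npc1l1 and Abcg5 passed in that contrast and Npc1l1 in distal minus proximal, when 1.17% and 0.52% of all genes did.

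The middle arrays also differed in ileal genes. The 5 distal identity genes (Fabp6, Slc10a2, Fgf15, Slc51b and Cubn) averaged 9.44 and 10.09 on the low-fat and high-fat middle arrays of young mice, and 9.25 and 8.73 on those of old mice, against 11.64 to 11.81 on the distal arrays. In the middle segment Slc10a2, the ileal bile acid importer, rose by 1.70 on the high-fat diet (adjusted p = 0.0339) and Cubn fell by 0.51 (adjusted p = 0.0217). The part of these genes in the middle results was not tested.

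The second comparison concerned age. No member passed in the proximal (0.109% of all genes), middle (0.0252%) or distal segment (0.654%), or over the pool means (2.90%). At an unadjusted p under 0.05 there was 1 gene, Abcg1, over the pool means and in the distal segment, and none in the other segments; of all genes 17.8% were there over the pool means, and 19.0%, 8.67% and 8.8% in the distal, proximal and middle segments. Over the pool means Abcg1 was lower in old mice by -0.18 (SE 0.05, unadjusted p = 0.0107, adjusted p = 0.145), and it was lower in old mice in 6 of 6 pairs of arrays. Over the same pool means 4 of 17 macrophage, 7 of 7 fibroblast, 8 of 10 smooth muscle and 5 of 8 endothelial markers fell with age and none rose, and the macrophage markers averaged 7.16 to 7.77 on the arrays of young and 6.77 to 7.51 on those of old mice. Their part in the Abcg1 values was not tested. For Abcg5, Npc1l1, Lpcat3 and Nr1h3 the age difference over the pool means lay between -0.004 and 0.06. It was larger for Mylip (-0.18, SE 0.10, adjusted p = 0.408 from limma), Abca1 (-0.15, SE 0.10, 0.502) and Abcg8 (0.11, SE 0.05, 0.31). In the middle segment Abca1 differed by -0.39 (SE 0.19, adjusted p = 0.611 from limma).

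Age and diet together were looked at as old minus young in the diet difference, common to the segments. Each age and diet is 1 pool, and its 3 segments come from the same mice. The error of this contrast therefore leaves out the spread between pools, and the contrast cannot be told from a difference between pools. No gene of the 11924 passed (0% of all genes, with 529, or 4.44%, at an unadjusted p under 0.05), and 2 of the 8 members were at an unadjusted p under 0.05. For Abca1 this contrast was -0.46 (SE 0.15, unadjusted p = 0.0188, adjusted p = 0.999). For Mylip the same contrast was -0.47 (SE 0.16, unadjusted p = 0.0271, adjusted p = 0.999). The diet difference of Abca1 was more negative in old than in young mice in all 3 segments, which are of the same mice, and that of Mylip in the proximal and middle segments. The other 6 members lay between -0.12 and 0.10.

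The third comparison followed the genes along the small intestine, with the 3 segments of a pool compared with each other. From the proximal to the distal segment, Mylip, Abca1 and Abcg1 rose and Abcg5, Abcg8 and Nr1h3 fell, 6 of 8 genes, against 54.8% of all genes, a contrast in which most of the table changed. The middle minus proximal contrast called 5 of 8, against 25.0%, and the distal minus middle contrast 5 of 8, against 34.6%.

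Mylip had the steepest gradient. Its mean was 6.07 (SD 0.20, n = 4) in the proximal, 6.83 (SD 0.49) in the middle and 7.79 (SD 0.17) in the distal segment. Distal minus proximal was 1.72 (SE 0.14, adjusted p = 3.22e-06), and both steps passed, at 0.76 and 0.96. The distal arrays did not overlap those of the other segments, a description only, as this was not counted over all genes.

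Abca1 averaged 7.66 (SD 0.48, n = 4), 8.40 (SD 0.65) and 8.55 (SD 0.10) from proximal to distal. The distal minus proximal difference was 0.90 (SE 0.19, adjusted p = 0.00218) and the middle minus proximal difference 0.74 (SE 0.19, adjusted p = 0.0155). Averaged over the diets, the middle and distal segments did not differ beyond their spread (0.15, SE 0.19, adjusted p = 0.554, and -0.13 without the high-fat pool of old mice). That mean joins opposite signs. On the low-fat diet the middle array was above the distal one (8.98 and 8.51 in young, 8.85 and 8.69 in old mice). On the high-fat diet it was below (8.21 and 8.45 in young, 7.57 and 8.56 in old mice). Without the pool as a block the middle minus proximal call was lost (adjusted p = 0.0787), as it was on leaving out the low-fat pool of old mice (0.0663), the high-fat pool of young mice (0.0635) or the low-fat pool of young mice (0.0541).

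Abcg5 and Abcg8 ran downhill. Abcg5 averaged 12.05 (SD 0.21, n = 4), 11.71 (SD 0.39) and 11.45 (SD 0.13), with distal minus proximal at -0.61 (SE 0.09, adjusted p = 0.000255), and Abcg8 averaged 11.25, 10.99 and 10.58, with distal minus proximal at -0.68 (SE 0.07, adjusted p = 2.29e-05). In all 4 pools both genes were lower in the distal than in the proximal segment, which was not counted over all genes either. From the middle to the distal segment Abcg5 fell on the low-fat diet (12.01 to 11.57 in young, 12.08 to 11.54 in old mice). On the high-fat diet that step was small and of mixed sign (11.33 to 11.36 in young, 11.41 to 11.31 in old mice). The smaller steps passed as well, but without the pool as a block both genes lost the calls of middle minus proximal (adjusted p = 0.158 and 0.252) and of distal minus middle (0.247 and 0.058). Distal minus middle for Abcg5 (-0.26, adjusted p = 0.0489) was also lost with no intensity filter (0.074), after centring (0.0796) and after quantile normalization, where it was -0.08 (0.52), as was middle minus proximal for Abcg8 after quantile normalization (0.0583). Leaving out 1 pool ended the middle minus proximal call of Abcg5 without the high-fat pool of old (adjusted p = 0.0772) or young mice (0.0726), that of Abcg8 without either of these (0.0716 and 0.11) or the low-fat pool of old mice (0.0624), and the distal minus middle call of Abcg5 without the low-fat pool of old (0.266) or young mice (0.196). The GATA factor Gata4, a proximal identity gene, averaged 9.42, 9.05 and 8.05 in the same order; whether it has a part in the gradient was not tested.

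Cell markers changed along the same axis. From the proximal to the distal segment 9 of 10 smooth muscle markers rose and none fell, 2 of 10 enterocyte markers rose and 6 fell, and 2 of 17 macrophage markers rose and 13 fell. The smooth muscle markers averaged 6.37 to 7.04 on the proximal and 7.17 to 8.50 on the distal arrays, the enterocyte markers 12.97 to 12.99 and 12.41 to 12.69, and the macrophage markers 7.38 to 7.77 and 6.77 to 7.18. Their part in the gradients of the members was not tested.

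Nr1h3 was highest in the middle segment. It averaged 9.22, 9.54 and 8.98 from proximal to distal, with middle minus proximal at 0.32 (SE 0.06, adjusted p = 0.00510), distal minus middle at -0.56 (SE 0.06, adjusted p = 0.000129) and distal minus proximal at -0.24 (SE 0.06, adjusted p = 0.0100). Abcg1 was higher in the distal than in the proximal segment by 0.21 (SE 0.06, adjusted p = 0.0161) and than in the middle segment by 0.30 (SE 0.06, adjusted p = 0.00515). The distal minus proximal calls of Nr1h3 and Abcg1 were lost without the pool as a block (adjusted p = 0.0694 and 0.0678) and after quantile normalization (0.0666 and 0.0723), and that of Abcg1 without the high-fat (0.0959) or low-fat pool (0.0735) of young mice. Npc1l1 and Lpcat3 passed in none of the segment contrasts: for Npc1l1 distal minus proximal was -0.12 (95% interval -0.37 to 0.13, and 0.05 after quantile normalization) and for Lpcat3 0.06 (95% interval -0.05 to 0.17). After quantile normalization Lpcat3 passed for distal minus proximal, at 0.28 (adjusted p = 0.000629), and for middle minus proximal, at 0.19 (adjusted p = 0.0174), the latter also with the intensity trend (0.0244), and Npc1l1 for distal minus middle (-0.22, SE 0.11) without the high-fat pool of old mice (0.0241).

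**Figure D3:**
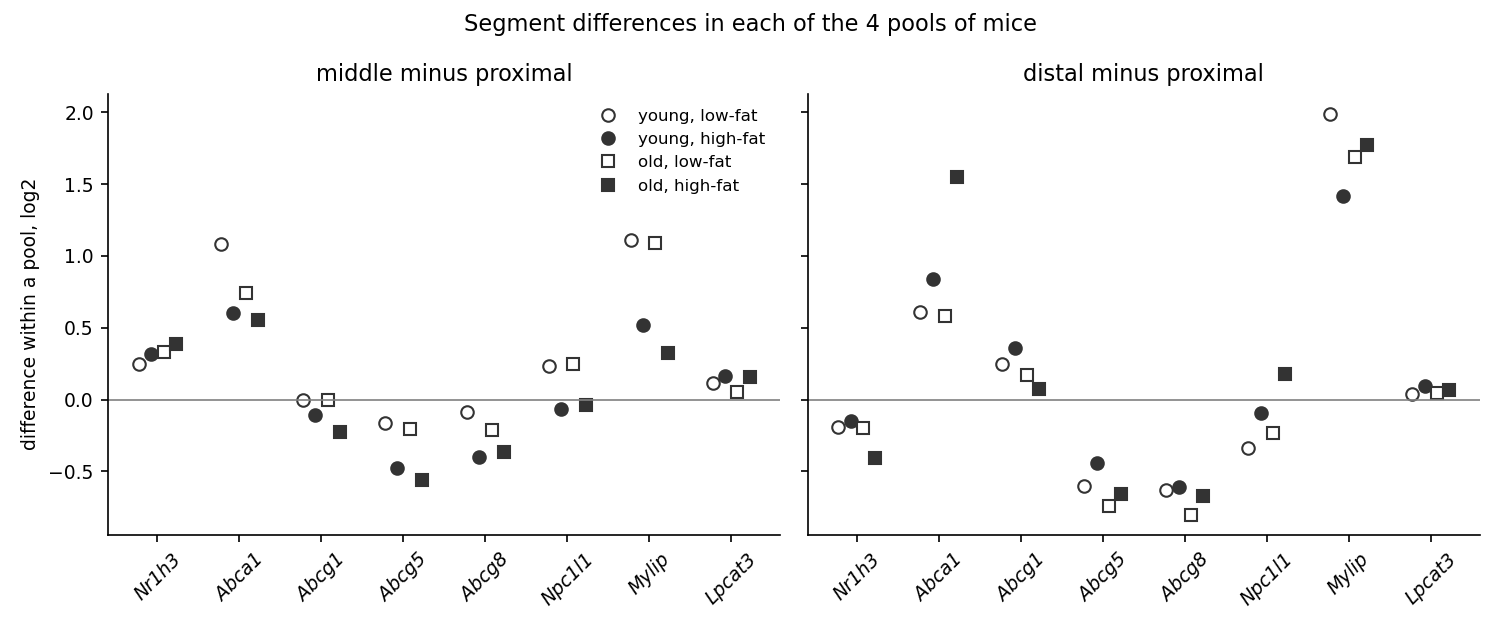
Difference between segments within each of the 4 pools of mice (vertical axis, log2), middle minus proximal on the left and distal minus proximal on the right, for each gene; circles are young and squares old mice, open symbols low-fat and filled symbols high-fat. All 4 pools lie above 0 for Abca1 and Mylip and below 0 for Abcg5 and Abcg8 in the right panel.

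Other genes of the same biology were read from lists drawn up for this purpose, with earlier results of these data known. Counts within the lists are therefore a description only. Of 11 other LXR targets tested, 3 rose and 1 fell over the pool means with the high-fat diet. Those that rose were the lipid synthesis genes Scd1 (1.18, SE 0.13), Scd2 (0.43, SE 0.06) and Srebf1 (0.37, SE 0.06), and the one that fell was Smpdl3a (-0.54, SE 0.05), a phosphodiesterase. The median of the 11 was 0.02.

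Among 4 genes of oxysterol synthesis and breakdown, Cyp27a1, the mitochondrial enzyme that makes an oxysterol able to bind LXRs, fell by 0.94 (SE 0.07, adjusted p = 0.00134), and the other 3 did not pass. It fell by 1.26 (SE 0.12, adjusted p = 0.00318) in the middle segment. Among 8 partners and coregulators, the orphan receptor Nr0b2 rose by 0.59 (SE 0.10, adjusted p = 0.0230) and the others, Rxra included, did not pass.

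Of 19 cholesterol synthesis and SREBP2 target genes, 10 rose and none fell, with Insig1 at 0.94, Fdps at 0.44, Cyp51 at 0.44 and Lss at 0.40, and the median of the list was 0.24. Of 17 genes of sterol uptake and transport inside the cell, the fatty acid and lipoprotein receptor Cd36 (0.41) and the lysosomal lipase Lipa (0.32) rose and Npc1, which releases cholesterol from lysosomes, fell (-0.28). The HDL receptor Scarb1 stood at -0.34 (adjusted p = 0.108). Of 9 chylomicron and HDL protein genes, Apoa4 (0.50), Mttp (0.33) and Apoa2 (0.26) rose and none fell. The 13 genes of the PPARalpha list include some of fatty acid oxidation and others of fatty acid handling. Of these 13, 8 rose, led by Cyp4a10 (1.71), Acot1 (1.59), Acadl (0.84) and Acot2 (0.76).

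**Figure D4:**
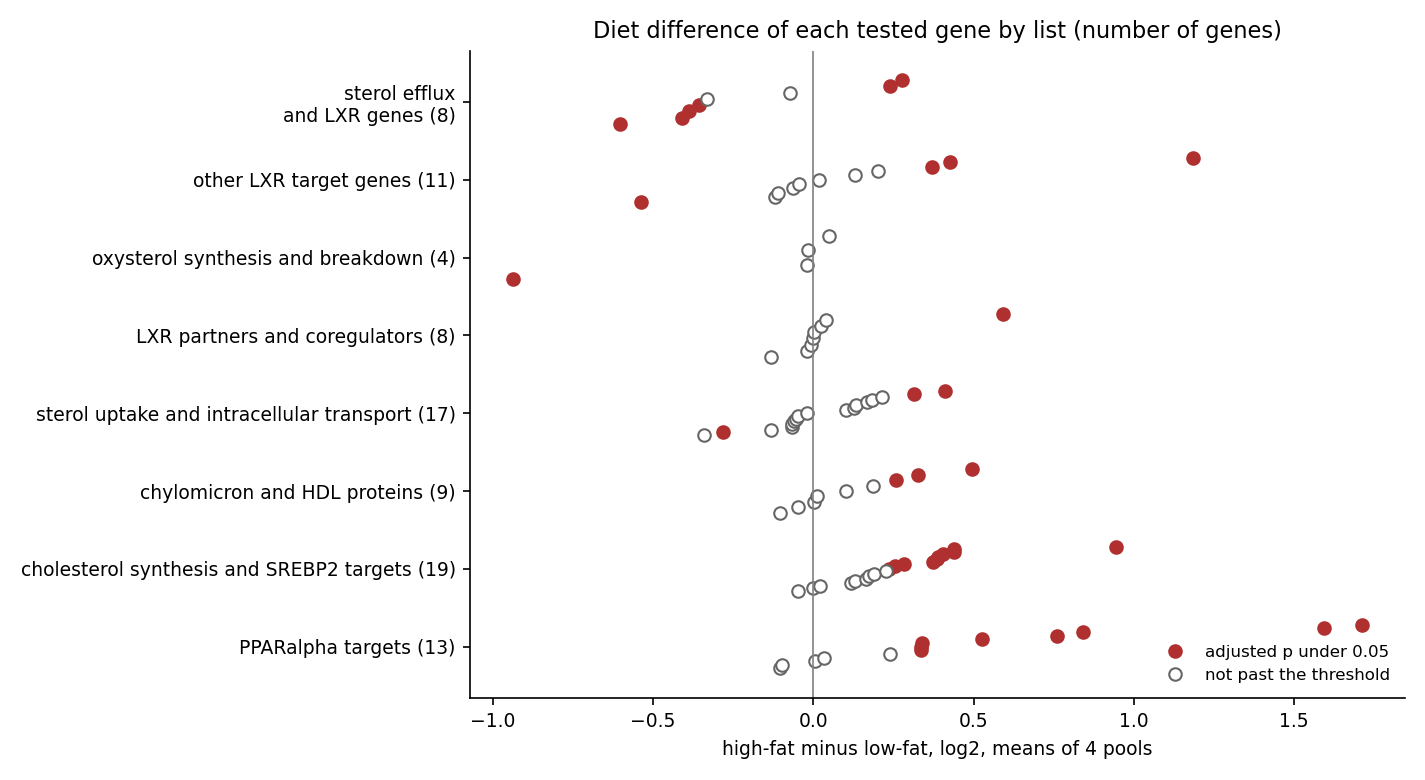
High-fat minus low-fat difference of the pool means (horizontal axis, log2) of every tested gene in 8 lists (number of genes in brackets); filled red symbols passed an adjusted p of 0.05 in limma and open symbols did not. Of the 8 sterol efflux and LXR genes, 4 lie below 0 and 2 above 0 with filled symbols, while the filled symbols of the SREBP2 and PPARalpha lists all lie above 0.

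Markers of other cells were read beside these results. Over the pool means with diet, 4 of 10 smooth muscle markers fell (Actg2 by 0.44, Acta2 by 0.36, Myl9 by 0.34, Myh11 by 0.28), as did 1 of 17 macrophage markers. None of 8 endothelial and 7 fibroblast markers passed, and of 10 enterocyte markers Apoa4 rose and Mgam and Slc5a1 fell. Of 5 proximal identity genes Cybrd1 fell (-0.62), of the 5 distal ones Slc10a2 rose (0.68) and Cubn (-0.34) and Fgf15 (-0.29) fell, and of 6 hepatocyte markers the 1 tested, Ttr, stood at -0.03. The smooth muscle markers averaged 6.37 to 8.50 on the low-fat and 6.40 to 8.17 on the high-fat arrays. Their part in the results of the members was not tested.

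Pearson correlations of log2 values over the 12 arrays are given as a description, since the arrays share 4 pools, 3 segments and 2 diets. Within segments, Abca1 went with Npc1l1 (0.917) and against Nr1h3 (-0.931), and Lpcat3 went with Nr1h3 (0.888) and against Abcg8 (-0.884). Without removing segment means, the correlation of Abca1 with Abcg5 was -0.11, and within segments it was 0.771.

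Over all genes tested, those whose 12 values were most like Abca1 were App (0.956), Sorl1 (0.950) and Ezr (0.945). For Abcg5 they were Nlrp1b (0.987), Fuca1 (0.985) and Ush1c (0.979), and for Abcg8 they were 2010106E10Rik (0.978), Abcg5 (0.973) and Plekha1 (0.972). Abcg8 thus had its partner gene among its 3 nearest, whereas Abcg8 was not among the 3 nearest to Abcg5. For Npc1l1 they were Uap1 (0.946), Mier1 (0.939) and Mbl2 (0.936), and for Mylip Nos2 (0.983), Nsd2 (0.98) and Arhgef3 (0.976). For Nr1h3 they were Copg1 (0.967), Psme1 (0.948) and Morf4l2 (0.937), for Lpcat3 Cdk5rap3 (0.943), Acot4 (0.940) and Stk40 (0.930), and for Abcg1 Flnc (0.903), Tmem184c (0.896) and Tns2 (0.895).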

How the data were processed

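Total RNA of scrapings was pooled per group in equal amounts and hybridised to Affymetrix Mouse Gene 1.0 ST arrays. The deposited log2 values were made by the authors with RMA (version not given in the sources used here) on transcript cluster probe sets, whereas the study's methods describe sets built on Entrez identifiers. Groups came from the array labels. Of 35556 probe sets, 21789 listed 1 gene symbol in the platform annotation, and the brightest by mean stood for its gene. A gene had to exceed an intensity of 50 on 1 or more arrays, and 24 pancreatic genes were removed.

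With limma 3.58.1 (R 4.3.3, statmod 1.5.0) the 12 arrays were modelled with age and diet within segment (3 residual degrees of freedom), also with 1 age by diet term added (2), the 4 pool means with age and diet (1), and segment with the pool as a fixed block (6); the pairing comes from the segments of 1 pool being of the same mice. p-values were adjusted over 11924 genes and called under 0.05. The number of arrays limits the precision. Fits were run on simulated arrays with known differences, independent errors and no spread between pools. That run cannot show how the fits behave when arrays share a pool. All 8 members were named in each comparison, with up to 4 genes of every other list by absolute difference (15 lists of related genes and cell markers) and the 3 genes most correlated with a member; Alb, Gata4, Rxra and the sequences printed were added after their values were seen. The members and lists were chosen with earlier results of these data known. Python 3.11.15, pandas 2.3.3, numpy 2.4.6 and matplotlib 3.10.9 did the rest. Alternatives covered the filter, normalization, probe sets, variance model, pool block, single segments, each array or pool left out and the fold threshold.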

Additional observations from a re-analysis of the deposited data

How the results depend on the processing

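Without the intensity filter 3 of the 8 genes passed over the pool means with diet (Abcg5, Abcg8 and Npc1l1) in place of 6. These 3 passed under every alternative run for that fit. Of all genes, 182 of 19914 (0.914%) passed without the filter, against 678 of 11924 (5.69%) with it. With the intensity trend 1428 of 11924 (12%) passed. With the intensity trend and robust variance, 4 genes passed for diet in the proximal segment, 3 in the distal, 2 for distal minus middle and 1 for distal minus proximal, where none had passed (1.97%, 3.65%, 1.17% and 0.52% of all genes), and 6 in place of 4 in the middle segment (7.2%). Leaving out 1 array took the diet calls in the middle segment to between 0 and 4 genes, and leaving out 1 pool the middle minus proximal calls to between 2 and 4. The segment fit with no replicate block called 2 genes for middle minus proximal and 3 for distal minus middle, in place of 5 and 5. It called 20.8% and 30.2% of all genes. A random replicate block for the pool (correlation -0.08) changed no call. At 1.5-fold, 4 genes passed in a diet pair and 2 in an age pair. These counts are a description only, as the share of all genes at 1.5-fold is not given here. Among the values given here, directions turned in uncalled results: centring gave 0.006 for Abcg1 and 0.001 for Mylip in the proximal and 0.012 for Abcg1 in the distal segment, where quantile normalization gave 0.003; leaving out an array gave -0.127 to 0.092 for Abcg1 and -0.101 to 0.021 for Npc1l1 in the distal, and -0.341 to 0.290 for Mylip in the proximal segment. Quantile normalization gave -0.008 for Abcg5 in diet by age, 0.091 for Lpcat3 in distal minus middle and 0.054 for Npc1l1 in distal minus proximal. Leave-one-out ranges were -0.002 to 0.035 for Abcg5 and -0.041 to 0.043 for Npc1l1 in diet by age, and -0.131 to 0.357 for Abca1 in distal minus middle. The causes were not tested. The fit of pool means could not leave out a pool, as no residual degree of freedom is left. Groups of 1 array allow no test for a departing sample.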
